A study of Mus musculus with 18 samples.

Results

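The 8 B lineage genes Ms4a1, Cd79a, Cd79b, Cd22, Pax5, Ighm, Jchain and Mzb1 were followed across the livers of 18 mice. They were picked by symbol, after the 55536 Ensembl identifiers of the count tables had been matched to gene names. The matching uses no measured value, but the genes were chosen with earlier results of these data known. Of the 8 genes, 6 had counts, and the same 6 were among the 14835 genes tested. Ms4a1 and Mzb1 had no count in any library.

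The livers came from female C57BL/6 mice given TCDD, a dioxin, by gavage at 100 µg/kg or its peanut oil vehicle, with a dose every 4 days and collection at day 92. The controls carried floxed but undeleted alleles of Ahr, the gene of the aryl hydrocarbon receptor (AHR), and the other lines are described by the cell type that lost it. The 3 genotypes were the floxed control (AhRfl/fl, labelled WT and so named here), deletion in hepatocytes (AhRΔHep, here dHep) and deletion in hepatic stellate cells (AhRΔHSC, here dHSC). The Cre driver of each deletion and the age of the mice are not given in the sources used here. The 6 groups are thus WT vehicle, WT TCDD, dHep vehicle, dHep TCDD, dHSC vehicle and dHSC TCDD, each with 3 mice, and a library is named by its group and mouse number. The labels name no deletion in B cells.

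B cells carry a surface antibody as antigen receptor. CD79A and CD79B are its signalling chains, CD22 is a co-receptor that dampens its signal, and MS4A1 (CD20) is a surface protein of mature B cells. PAX5 is the transcription factor that holds cells in the B lineage and is switched off when they become plasma cells. Ighm encodes the constant part of the IgM heavy chain, JCHAIN joins secreted IgM and IgA into polymers, and MZB1 helps to assemble antibody in the endoplasmic reticulum. TCDD activates AHR, and in culture it is known to suppress antibody production by mouse B cells.

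Total counts ran from 12706490 to 27240877 per library, and levels are given as CPM, the count scaled to library size after TMM. Ahr itself did not separate the genotypes: counts over the whole gene gave 32.7 to 70.0 CPM in WT vehicle, 28.1 to 56.8 CPM in dHep vehicle and 32.7 to 45.5 CPM in dHSC vehicle, and such counts do not check the loss of part of the gene. Cyp1a1, a classical AHR target, stood at 5090 to 8328 CPM in WT TCDD, at 2449 to 5576 CPM in dHSC TCDD and at 283 to 334 CPM in dHep TCDD. On the first principal component 5 libraries stood apart from the rest, namely dHep vehicle 9 and 15, dHep TCDD 16, dHSC vehicle 17 and dHSC TCDD 18. Their scores were 62.1 to 126.4, against at most 36.8 in the other 13, and 2.20% to 4.25% of their counts lay outside protein-coding genes, against 1.13% to 1.76%. In dHSC TCDD 18 mitochondrial genes took 28.4% of counts. None of the 5 is a WT library, but all 18 share 1 estimate of spread, so tests within WT depend on them too. Without the 5, the median log2 difference of the 6 tested genes after TCDD in WT was 2.47, beside 2.46 with them. WT vehicle 1 differed in another way, with 808 CPM over 6 skeletal muscle genes.

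RefSeq promoters (GRCm38.p6) were at hand for 4 of the 8 genes, namely Cd79a, Pax5, Cd22 and Jchain. The 250 bases before the RefSeq start are shown for the 3 genes of the receptor and its lineage factor that held a match to a searched motif. Capitals mark the matches.
Cd79a: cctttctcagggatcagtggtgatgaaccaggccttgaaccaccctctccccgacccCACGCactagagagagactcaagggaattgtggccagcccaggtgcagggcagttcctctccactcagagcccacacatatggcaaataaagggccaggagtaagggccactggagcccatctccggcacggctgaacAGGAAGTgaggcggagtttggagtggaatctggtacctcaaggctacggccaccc
Pax5: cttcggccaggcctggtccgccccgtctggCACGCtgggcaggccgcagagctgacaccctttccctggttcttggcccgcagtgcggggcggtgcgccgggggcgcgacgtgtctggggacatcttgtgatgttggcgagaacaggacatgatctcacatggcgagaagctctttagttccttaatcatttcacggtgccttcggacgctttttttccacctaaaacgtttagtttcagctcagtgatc
Cd22: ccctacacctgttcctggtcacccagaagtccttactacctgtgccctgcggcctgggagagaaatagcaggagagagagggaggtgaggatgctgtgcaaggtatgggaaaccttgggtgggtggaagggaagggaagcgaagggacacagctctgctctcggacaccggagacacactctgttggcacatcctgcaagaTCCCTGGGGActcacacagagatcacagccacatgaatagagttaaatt
The Cd79a stretch lies at chr7:24897247-24897496 on the plus strand, that of Pax5 at chr4:44710695-44710944 and that of Cd22 at chr7:30879029-30879278, both on the minus strand. The letters searched on both strands were the octamer ATGCAAAT, the EBF motif (TCCC, any 2 bases, then GGGA), the Ets motif AGGAAGT and the AHR core GCGTG. No searched motif overlapped another in these stretches. In Cd79a the Ets letters lie 55 bases before the start, and the AHR core, read as CACGC on the other strand, lies 193 bases before it. In Pax5 the AHR core lies 220 bases before the start, again as CACGC. In Cd22 the EBF motif lies 49 bases before the start as TCCCTGGGGA. The Jchain stretch held no match. Among 32851 promoters of the same length, 28.2% held the AHR core, 7.7% the Ets motif, 1.6% the octamer and 0.8% the EBF motif. The RefSeq starts differ from the outer gene ends of GENCODE M21 used for the coordinates below. By those coordinates the whole Cd22 stretch and the Cd79a Ets match lie inside the gene. The Cd79a AHR core and the Pax5 stretch lie outside it.

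In WT livers Cd79a, Cd79b and Pax5 rose after TCDD, by log2 differences of 2.92, 2.54 and 3.18. Of the 6 tested genes 3 thus rose, none fell, and Cd22, Ighm and Jchain missed the threshold of an adjusted p of 0.05 in edgeR. Of all genes tested 3.43% were called higher in that comparison. In 5 of the 6 genes every treated WT mouse was above every vehicle mouse, which held for 13.4% of all genes. The median log2 difference of the 6 genes was 2.46, beside -0.02 over all genes. In bulk liver, more B cells and more RNA per B cell cannot be told apart.

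Cd79a lies at chr7:24897381-24902197 on the plus strand (GRCm38, GENCODE M21), with 5 exon blocks free of other genes. It stood at 2.01, 1.74 and 1.03 CPM in the WT vehicle mice 1, 7 and 13 and at 16.03, 10.48 and 9.76 CPM in the WT TCDD mice 2, 8 and 14. Every treated WT mouse was far above every vehicle mouse. The Cd79a log2 difference was 2.92 ± 0.63 (SE), with an adjusted p of 0.0112 in edgeR's quasi-likelihood test. The call was lost when WT vehicle 13 was left out (edgeR adjusted p = 0.0607). In dHep livers Cd79a was 3.56, 2.97 and 4.83 CPM with vehicle and 3.90, 5.65 and 7.28 CPM with TCDD, and the groups overlapped. In dHSC livers it was 0.905, 0.958 and 2.81 CPM with vehicle and 4.57, 2.92 and 18.6 CPM with TCDD. The highest of these, in dHSC TCDD 18, is from a library that stands apart, and the lowest treated mouse was barely above the highest vehicle mouse.

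Cd79b encodes the partner chain of CD79A and lies at chr11:106311341-106314762 on the minus strand, in 6 exon blocks. It stood at 2.29, 1.57 and 1.61 CPM in WT vehicle and at 14.7, 8.49 and 8.81 CPM in WT TCDD, with no overlap. The Cd79b log2 difference of 2.54 ± 0.43 (SE; edgeR adjusted p = 0.00211) kept its call in all 6 fits that left out 1 WT library. In dHep it was 3.45, 4.64 and 2.94 CPM with vehicle and 3.59, 4.96 and 5.17 CPM with TCDD. In dHSC it was 1.18, 1.62 and 1.27 CPM with vehicle and 4.28, 3.86 and 12.0 CPM with TCDD. Ordered by group mean, Cd79b was highest in WT TCDD (10.7 ± 3.50 CPM, SD, n = 3), followed by dHSC TCDD (6.70 ± 4.56), dHep TCDD (4.57 ± 0.857), dHep vehicle (3.68 ± 0.871), WT vehicle (1.82 ± 0.408) and dHSC vehicle (1.36 ± 0.235). Neighbours in that order overlapped, except dHep vehicle and WT vehicle, whose libraries did not.

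**Figure D1:**
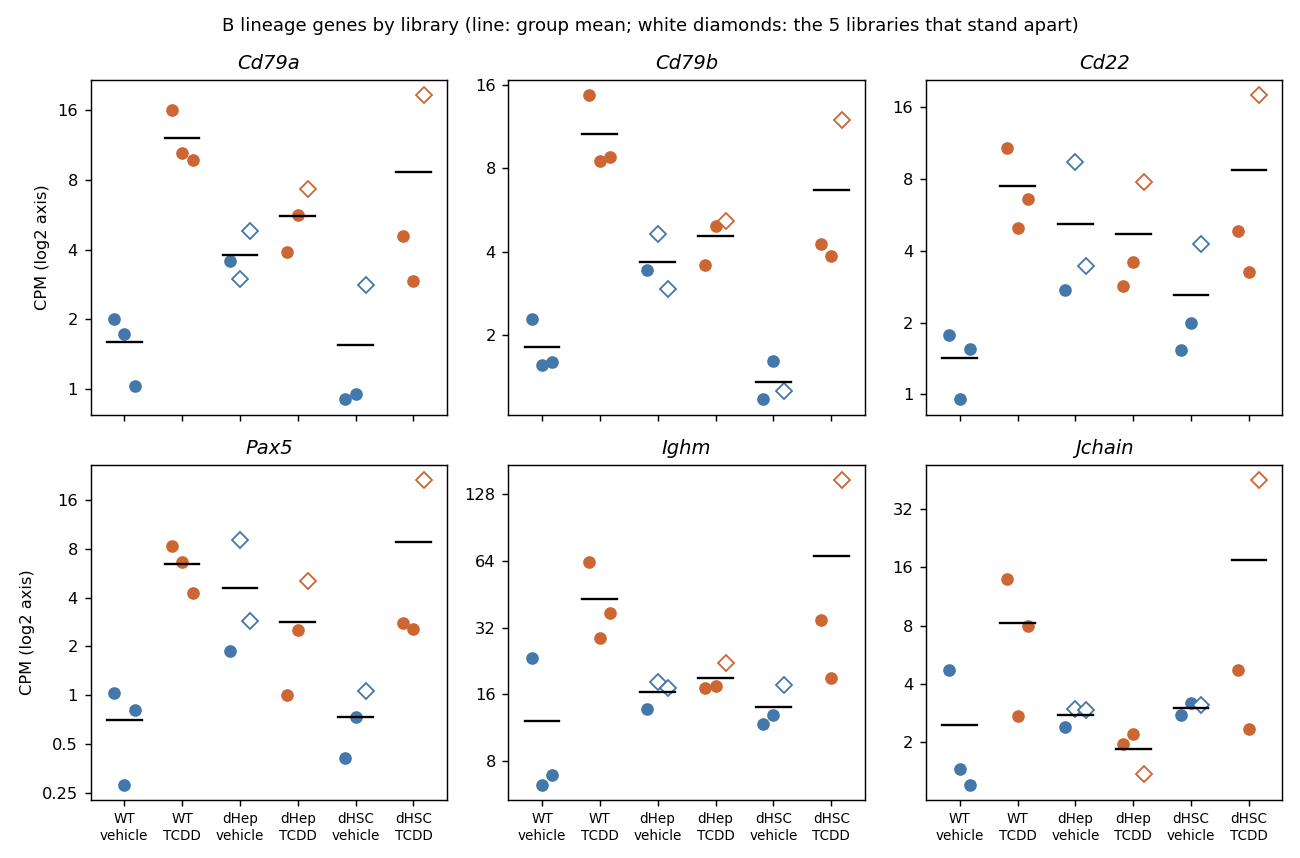
Level of each of the 6 counted B lineage genes in every library, in TMM-scaled CPM on a log2 axis, by group. Points are mice, bars are group means and white diamonds are the 5 libraries that stand apart; in WT the treated mice lie above the vehicle mice for every gene but Jchain, whose groups overlap, and dHSC TCDD 18 is the highest dHSC library in each panel.

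Cd22 lies at chr7:30865402-30880342 on the minus strand, and 9.6% of its exon bases are under an antisense gene. It was 1.78, 0.953 and 1.55 CPM in WT vehicle and 10.8, 5.01 and 6.62 CPM in WT TCDD. The WT groups did not overlap, yet the Cd22 log2 difference of 2.38 ± 0.68 (SE) had an edgeR adjusted p of 0.0541. Without the 5 libraries that stand apart, Cd22 passed, with an edgeR adjusted p of 0.00286. In dHep it was 2.73, 9.40 and 3.47 CPM with vehicle and 2.86, 3.58 and 7.76 CPM with TCDD, where the highest value of each group came from a library that stands apart. In dHSC it was 1.54, 1.99 and 4.29 CPM with vehicle and 4.87, 3.26 and 18.1 CPM with TCDD, and these groups overlapped.

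Pax5 lies at chr4:44524757-44710487 on the minus strand, with 13 exon blocks and 10.8% of exon bases under other genes. It was 1.03, 0.280 and 0.804 CPM in WT vehicle and 8.38, 6.66 and 4.26 CPM in WT TCDD, without overlap. The Pax5 log2 difference in WT, 3.18 ± 0.89 (SE), only just passed, with an edgeR adjusted p of 0.0489. It missed the threshold in each of the 6 fits without 1 WT library, where edgeR's adjusted p ran from 0.0696 to 0.203. In dHep it was 1.87, 9.04 and 2.87 CPM with vehicle and 0.995, 2.51 and 5.04 CPM with TCDD. In dHSC it was 0.407, 0.737 and 1.06 CPM with vehicle and 2.80, 2.57 and 21.3 CPM with TCDD. The dHep groups overlapped and the dHSC groups did not.

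Ighm, at chr12:113418558-113422730 on the minus strand, was the most abundant of the genes. It was 23.3, 6.28 and 6.95 CPM in WT vehicle and 63.1, 28.9 and 37.2 CPM in WT TCDD. The groups did not overlap, although WT vehicle 1, the library with muscle transcripts, lay near the lowest treated mouse. The Ighm log2 difference was 1.82 ± 0.62 (SE) and was not called (edgeR adjusted p = 0.111). Without the 5 libraries that stand apart it was 1.83 and was called (edgeR adjusted p = 0.0382). Without WT vehicle 1 it was 2.70 and was called (edgeR adjusted p = 0.0265). In dHep Ighm was 13.7, 18.1 and 17.1 CPM with vehicle and 17.1, 17.5 and 22.2 CPM with TCDD, and in dHSC 11.8, 12.9 and 17.6 CPM with vehicle and 34.7, 19.0 and 148 CPM with TCDD.

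Jchain lies at chr5:88519809-88527891 on the minus strand. It was 4.70, 1.46 and 1.21 CPM in WT vehicle and 13.9, 2.73 and 7.98 CPM in WT TCDD. WT TCDD 8 was below WT vehicle 1, and the Jchain log2 difference of 1.74 ± 0.85 (SE) was not called (edgeR adjusted p = 0.321). In dHep it was 2.40, 2.97 and 2.94 CPM with vehicle and 1.95, 2.20 and 1.36 CPM with TCDD, every treated mouse below every vehicle mouse. In dHSC it was 2.76, 3.17 and 3.10 CPM with vehicle and 4.72, 2.32 and 45.3 CPM with TCDD. The last of these is dHSC TCDD 18, and dHSC TCDD 12 was below all dHSC vehicle mice.

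Compared per length, Ighm led in WT TCDD with a mean of 22.8 CPM per kb of exon, followed by Cd79a with 8.30, Cd79b with 7.45, Jchain with 3.26, Cd22 with 1.48 and Pax5 with 0.727 CPM per kb. In WT vehicle Ighm stood at 6.45 CPM per kb and Cd79a, Cd79b and Jchain were each close to 1, at 1.09, 1.27 and 0.975 CPM per kb.

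The zeros of Ms4a1 and Mzb1 go with overlapping genes in the annotation. Ms4a1 (chr19:11249675-11266241, minus strand) has 100.0% of its exon bases under the span of the antisense gene 4930526L06Rik, and Mzb1 (chr18:35647267-35649367, minus strand) has 99.9% under SPATA24. Each of the 1290 protein-coding genes lying wholly inside another gene was at 0 throughout. Among the 11798 that overlap no other gene, 2980 (25.3%) were. Igkc, the constant part of the kappa light chain, was at 0 as well, with its exon bases wholly under Gm30211. CD20 and MZB1 transcripts are therefore not assessed here, and the plasma cell side of the set rested on Jchain and the antibody genes. Tnfrsf17, the plasma cell receptor BCMA, had 15 counts over all 18 libraries and was not tested.

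When the hepatocyte AHR was deleted, none of the 6 genes passed the test after TCDD. Their log2 differences in dHep ran from -0.70 (Pax5) to 0.57 (Cd79a), with a median of 0.04 beside -0.01 over all genes. edgeR called 0 of 6, of which 0 had an unadjusted p under 0.05 (6.7% of all genes did), and DESeq2 also called 0. Of all genes 0.0674% were called in either direction. Jchain was the 1 gene whose groups did not overlap, with lower values after TCDD (log2 -0.59 ± 0.85, SE; edgeR adjusted p = 0.934). Over all genes, 5.03% had no overlap with lower values after TCDD.

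The difference between the dHep and WT responses was tested directly. All 6 estimates were negative: -3.87 ± 1.2 (SE) for Pax5, -2.52 ± 0.93 for Cd22, -2.35 ± 0.84 for Cd79a, -2.33 ± 1.2 for Jchain, -2.23 ± 0.59 for Cd79b and -1.61 ± 0.86 for Ighm on the log2 scale. edgeR called 0 of 6, beside 0.856% of all genes called in either direction. An unadjusted p under 0.05 was found for 4 of the 6 and for 8.43% of all genes. The lowest edgeR adjusted p was 0.119, for Cd79b. DESeq2 called 2, Cd79b (adjusted p = 0.0227) and Pax5 (adjusted p = 0.0444). The share of all genes that DESeq2 called is not given here. In edgeR fits that left out a single library, the Pax5 difference ran from -4.56 to -2.92 (adjusted p 0.153 to 0.703). That of Cd79b ran from -2.42 to -1.92 (adjusted p 0.119 to 0.339). Both dHep groups hold libraries that stand apart. Without dHep vehicle 9, which is such a library, Pax5 after TCDD in dHep was 0.26 in place of -0.7 on the log2 scale. A smaller response in dHep was thus estimated for each gene and passed for none in edgeR.

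The vehicle groups and the treated groups were also compared across genotypes. With vehicle alone, the log2 difference of dHep minus WT was positive for all 6 genes, from 0.17 for Jchain to 2.69 for Pax5, and Cd79a, Cd79b, Pax5 and Cd22 had no overlap between the 2 vehicle groups. Over all genes 4.58% had no overlap with higher dHep values. edgeR called 0 of 6 and 0% of all genes, 3 of the 6 had an unadjusted p under 0.05 (6.91% of all genes), and DESeq2 called 0 of them. After TCDD, dHep minus WT was negative for all 6, from -0.66 for Cd22 to -2.16 for Jchain, and Cd79a, Cd79b, Ighm and Jchain had no overlap, beside 9.68% of all genes with lower dHep values. edgeR again called 0 of 6, beside 1.94% of all genes, with 2 at an unadjusted p under 0.05 (9.83% of all genes) and 0 called by DESeq2. The comparisons share groups, so their values stand side by side and are not separate evidence. In dHep vehicle, 2 of the 3 libraries stand apart. Without the 5 such libraries the dHep vehicle group is 1 mouse, and its spread is assumed to be that of the other groups. The median log2 difference in vehicle was then 0.93 in place of 1.13.

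**Figure D2:**
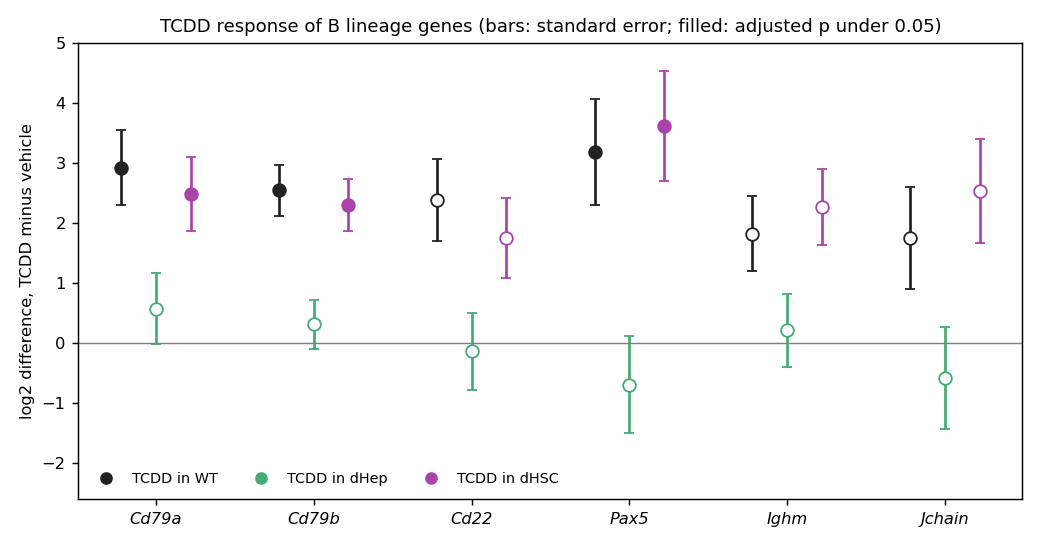
Log2 difference of TCDD minus vehicle for the 6 tested genes in each genotype, with standard errors from the fit of all 18 libraries (edgeR); filled points have an adjusted p under 0.05. Estimates in WT and dHSC lie between 1.74 and 3.61, and those in dHep lie between -0.70 and 0.57.

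In dHSC livers 3 of 6 genes rose after TCDD, none fell and the median log2 difference was 2.39, beside 0.00 over all genes. Of all genes 1.71% were called higher. Cd79b rose by 2.30 ± 0.43 (SE; edgeR adjusted p = 0.00786), Cd79a by 2.48 ± 0.62 (adjusted p = 0.0459) and Pax5 by 3.61 ± 0.91 (adjusted p = 0.0463) on the log2 scale. Ighm (2.26 ± 0.63), Jchain (2.53 ± 0.87) and Cd22 (1.75 ± 0.67) missed the threshold in edgeR, with adjusted p-values of 0.0804, 0.173 and 0.25.

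These dHSC values rested to a large part on 1 mouse. Without dHSC TCDD 18 the log2 differences were 1.27 for Cd79a and 1.89 for Pax5, neither of them called (edgeR adjusted p = 0.326 and 0.338), and 1 of the 6 genes, Cd79b, was still called. Leaving out dHSC vehicle 5 left 0 called, as did leaving out the 5 libraries that stand apart, where Cd79a had a log2 difference of 2.0 (edgeR adjusted p = 0.054), Cd79b one of 1.55 (0.0981) and Pax5 one of 2.25 (0.164). Leaving out dHSC vehicle 11 left 1 called. A fit of only the dHSC groups also called 0 of 6 at nearly the same log2 differences, with edgeR adjusted p-values of 0.169 for Cd79b, 0.356 for Cd79a and 0.244 for Pax5. The dHSC TCDD mice 6 and 12 were nonetheless above all 3 vehicle mice for Cd79a, Cd79b, Pax5 and Ighm. Over all genes 9.61% had no overlap with higher values after TCDD.

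The dHSC and WT responses did not differ by a margin that passed the test. Their differences ran from -0.64 ± 0.92 (Cd22) to 0.79 ± 1.17 (Jchain) on the log2 scale, 0 of 6 were called by edgeR or by DESeq2, and 0 had an unadjusted p under 0.05 (1.57% of all genes). No gene of the 14835 was called in that comparison (0%). With vehicle, dHSC minus WT ran from -0.43 (Cd79b) to 0.86 (Cd22), and after TCDD from -0.67 (Cd79b) to 1.08 (Jchain), again with 0 of 6 called by either tool, 0 at an unadjusted p under 0.05 (1.48% and 3.63% of all genes) and 0% of all genes called. For Ighm, Jchain and Pax5 the response difference, and treated dHSC minus WT, changed sign without dHSC TCDD 18. The response difference was then -1.52 for Jchain, -1.29 for Pax5 and -0.89 for Ighm, and all 6 genes were below 0. Treated dHSC minus WT was then -1.23 for Jchain, and that of Cd22 changed sign too, to -0.88. Leaving out WT vehicle 1 also turned the response difference of Ighm (-0.46) and Jchain (-0.11). Without the 5 libraries that stand apart the medians of the 6 genes were -0.97 for the response difference and -1.25 for treated dHSC minus WT. Standard errors were 0.59 to 1.21 for the response difference and 0.40 to 0.91 for dHSC minus WT with vehicle and with TCDD. Given these, the values do not show that the genotypes act alike.

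Around the 8 genes, 5 wider lists held 69 genes of the same biology, of which 54 were tested. In WT after TCDD 14 of them rose and 0 fell, beside 3.43% of all genes called higher. Among 21 tested genes of B cell identity and receptor signalling 11 rose, with a median of 1.82. They include Fcer2a, the low-affinity IgE receptor CD23, at a log2 difference of 2.72, and Tnfrsf13b, the receptor TACI, at 2.47. Fcmr, the receptor for IgM, rose by 2.28, Fcrl1, an Fc receptor-like protein of B cells, by 2.22 and Blk, a B cell Src kinase, by 2.04.

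Of 8 tested B lineage transcription factors 2 rose in WT (3.43% of all genes did), with a median of 1.45. Pou2af1, the octamer coactivator OCA-B, had a log2 difference of 3.36 (SE 0.74) and Spib, an Ets factor of B and plasmacytoid dendritic cells, one of 2.76 (SE 0.62). Ebf1, which sets up the B lineage together with PAX5, had 0.61 (SE 1.23) and was not called. Irf8 had no count, being covered by another gene.

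No gene of the plasma cell and secretion list passed edgeR's test in WT after TCDD. Of 13 tested 0 were called, 6 had an unadjusted p under 0.05 (16.7% of all genes did), and the median was 0.59, while DESeq2 called 1 higher and 1 lower. Prdm1, the factor Blimp-1 that drives plasma cell formation, had a log2 difference of 1.73 (SE 0.62, edgeR adjusted p = 0.134). Xbp1 had 0.18 (SE 0.43) and Sdc1 had -1.55 (SE 0.54), and both are also made by hepatocytes. Of 7 tested immunoglobulin constant genes edgeR called 0, 3 had an unadjusted p under 0.05, and the median was 2.59, and DESeq2 called 2 of the 5 to which it gave an adjusted p. Igha was 2.35, 1.68 and 1.84 CPM in WT vehicle and 16.2, 9.06 and 9.01 CPM in WT TCDD. Its groups did not overlap, but its standard error was 1.11 around a log2 difference of 2.54 (edgeR adjusted p = 0.248).

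Of 5 tested ligands that keep B cells alive or guide them 1 rose in WT, beside 3.43% of all genes. It was Ltb, a lymphotoxin chain that lymphocytes make, which rose by 2.32 (SE 0.53). Tnfsf13b, the survival factor BAFF, had a log2 difference of 0.99 (SE 0.58, edgeR adjusted p = 0.451). Cxcl13, the chemokine that draws B cells into follicles, had -1.34 (SE 0.94, edgeR adjusted p = 0.578), and its groups overlapped, with 3.10, 1.35 and 3.90 CPM in vehicle against 1.01, 0.854 and 1.41 CPM with TCDD.

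In dHep, edgeR called 0 of the 54 genes after TCDD, beside 0.0674% of all genes, and DESeq2 called 1. An unadjusted p under 0.05 was found there for 6.7% of all genes. The list medians there were 0.15 for identity genes (0 of 21 at an unadjusted p under 0.05), -0.39 for factors (1 of 8), 0.41 for plasma cell genes (3 of 13), -1.37 for constant genes (0 of 7) and 0.48 for ligands (0 of 5). In dHSC 6 rose, beside 1.71% of all genes called higher. The 6 include Tnfrsf13c, the BAFF receptor, up by 4.44, Ighd, the IgD heavy chain, by 3.54, Pou2af1 by 3.02, Spib by 2.88 and Blk by 2.30. Without dHSC TCDD 18, 0 of the wider genes were called in dHSC, and without the 5 libraries that stand apart 2 were. The WT count also moved with single mice. It was 1 without WT TCDD 2, 1 without WT vehicle 7, 3 without WT vehicle 13 and 7 without WT TCDD 14.

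**Figure D3:**
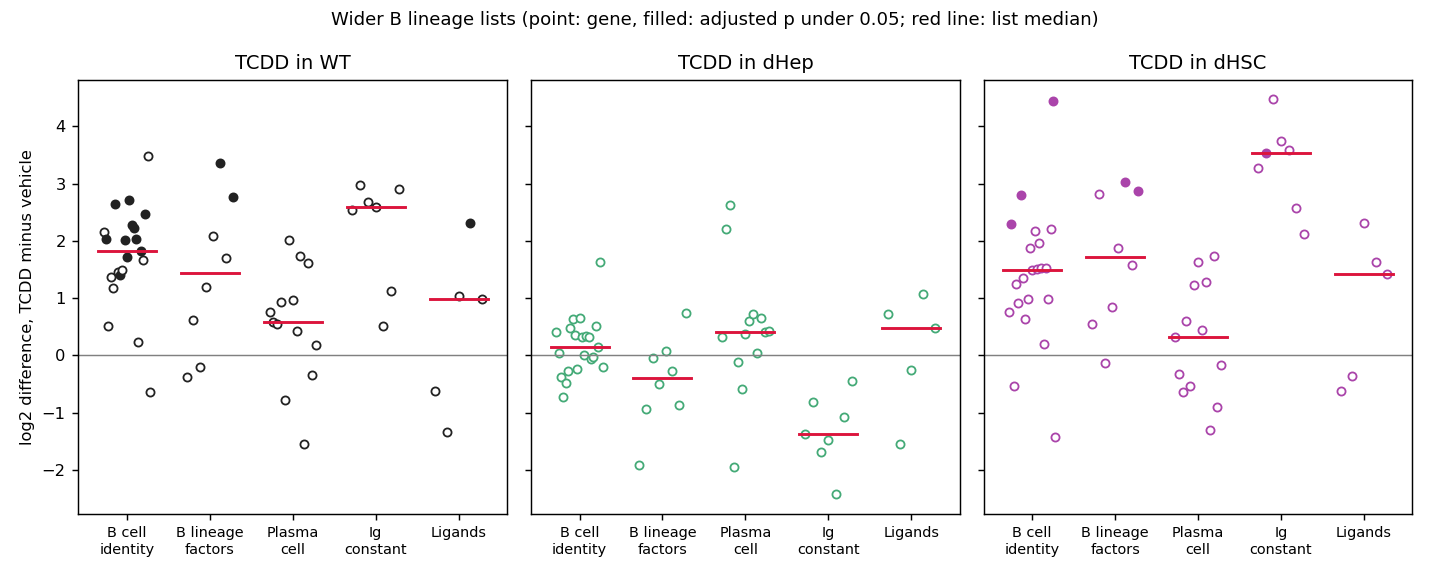
Log2 difference of TCDD minus vehicle for each tested gene of the 5 wider lists, by genotype, with list medians as red lines and genes past an adjusted p of 0.05 (edgeR) filled. In WT the identity genes lie around a median of 1.82 and the plasma cell genes around 0.59; in dHep no gene is filled.

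Some markers of other blood cells rose beside the B lineage genes. In WT, Ptprc (CD45), found on all white blood cells, rose by 1.59 (SE 0.42) on the log2 scale. There 3.43% of all genes were called higher. Of 5 tested neutrophil markers 4 rose, and the summed level of the 6 listed was 1.23 to 3.50 CPM in WT vehicle and 56.1 to 79.8 CPM in WT TCDD. Of 7 tested macrophage and monocyte markers 2 rose, with sums of 109 to 304 CPM against 343 to 458 CPM, and Itgam was at 0 under an overlapping gene. Of 9 tested T and NK cell markers 0 were called by edgeR and 0 by DESeq2. An unadjusted p under 0.05 was found for 2, near the 16.7% over all genes. The median log2 difference of the 9 was nonetheless 1.08. Of them 5 had no overlap, with higher values after TCDD, beside 13.4% of all genes. The T and NK cell sums were 4.54 to 12.6 CPM against 12.6 to 15.3 CPM. In dHep 0 of 5 neutrophil markers were called by edgeR and 0 by DESeq2, 0 had an unadjusted p under 0.05, and the sums were 4.08 to 16.2 CPM in vehicle and 8.96 to 25.3 CPM with TCDD. In dHSC 3 of 5 were called, beside 1.71% of all genes called higher. The neutrophil sums there were 1.58 to 4.85 CPM against 8.70 to 119 CPM, the highest again in dHSC TCDD 18. The part of these cells in the B lineage result was not tested. Of 6 hepatocyte markers edgeR called 0 in WT, with 1 at an unadjusted p under 0.05 and a median log2 difference of -0.93, and DESeq2 called 1 lower.

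The genes also varied together from library to library. Pearson's r of log2 CPM over the 18 libraries was 0.93 for Cd79a and Cd79b, 0.95 for Pax5 and Cd22 and 0.90 for Ighm and Jchain. It was lowest for Jchain with Cd79a and with Cd79b, at 0.62 each. Without the 5 libraries that stand apart these became 0.98, 0.95, 0.88, 0.61 and 0.67. Other genes were ranked by likeness to the mean profile of the 6, with predicted genes and immunoglobulin V, D and J segments left out. Among the top 12 were Myo1g (r = 0.963), Siglecg (0.954), H2-Ob (0.954), Akna (0.946), Lrmp (0.946), Slc2a6 (0.945), Coro1a (0.943), Itgb7 (0.941), Pou2af1 (0.937), Tgfb1 (0.933) and Csf3r (0.933). All points share the group differences and the libraries, so these values only describe the profiles.

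The constant genes gave the classes of heavy chain in each liver. Counts over Ighm, Ighd, Igha and 4 Ighg genes summed to 193 to 6347 per library. IgM was the largest class in WT, at 79.0%, 58.0% and 55.0% with vehicle and at 57.3%, 49.7% and 59.1% with TCDD. The share of Ighm thus overlapped between treatments while the summed level did not, at 29.5, 10.8 and 12.6 CPM against 110.1, 58.2 and 62.9 CPM. Igha took 8.0%, 15.5% and 14.5% in WT vehicle and 14.7%, 15.6% and 14.3% in WT TCDD. dHSC TCDD 18 had a different make-up, with 35.5% Igha (exact 95% interval 34.3% to 36.7%) and 32.6% Ighm of 6347 counts, where Igha took 6.6% to 27.4% in the other 17 libraries. The Ighg genes took 26.7% in dHep vehicle 9 and 26.4% in dHSC vehicle 5. The interval covers counting error only, since reads without molecular identifiers are not independent molecules.

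**Figure D4:**
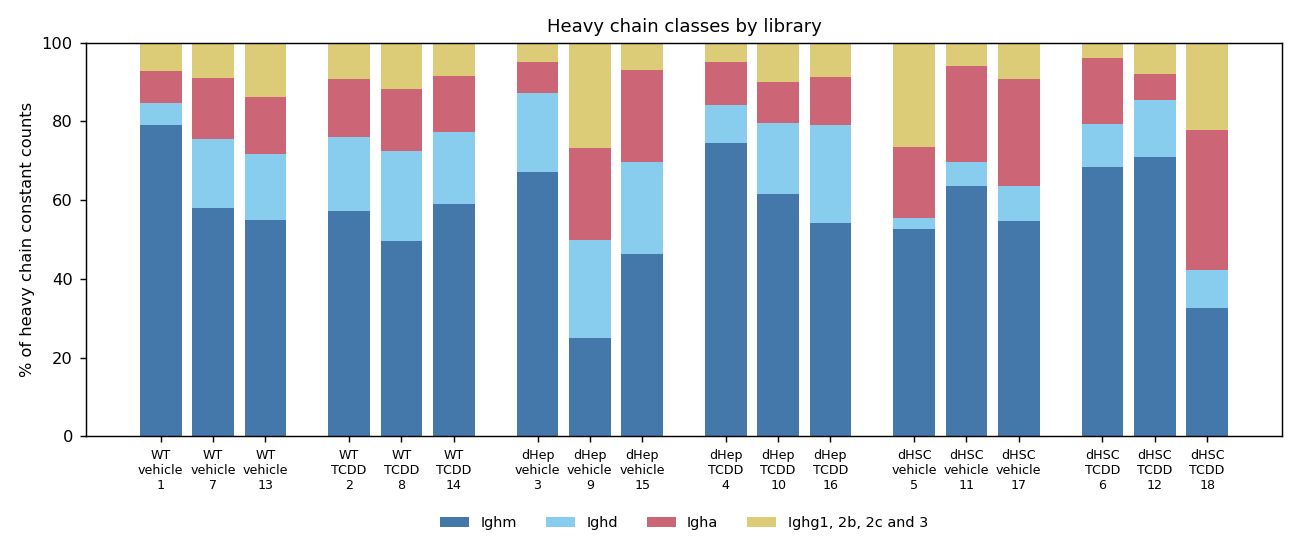
Share of heavy chain constant counts that fell on Ighm, Ighd, Igha and the 4 Ighg genes in each library, in percent. Ighm is the largest class except in dHep vehicle 9, where the Ighg genes lead at 26.7%, and in dHSC TCDD 18, where Igha leads at 35.5%.

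Variable segments, which B cells join to the constant part when they assemble an antibody gene, were counted too. Of 218 annotated V segments 183 had a count and 7 passed the filter on low counts. Some V segments are close copies of others, so counts of single segments are uncertain. Summed over segments, V counts were 13.2, 2.19 and 5.45 CPM in WT vehicle and 48.3, 7.63 and 24.8 CPM in WT TCDD. These groups overlapped, since WT TCDD 8 was below WT vehicle 1, unlike in the constant genes. Set against the heavy chain constant counts, WT TCDD 8 had 1.37 Ighv counts per 100, the 5 libraries that stand apart had 0.656 to 1.5, and the other 12 had 6.22 to 20.0. WT TCDD 8 also had the highest first component score of the remaining 13, at 36.8. What ties this ratio to the library was not tested.

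**Figure D5:**
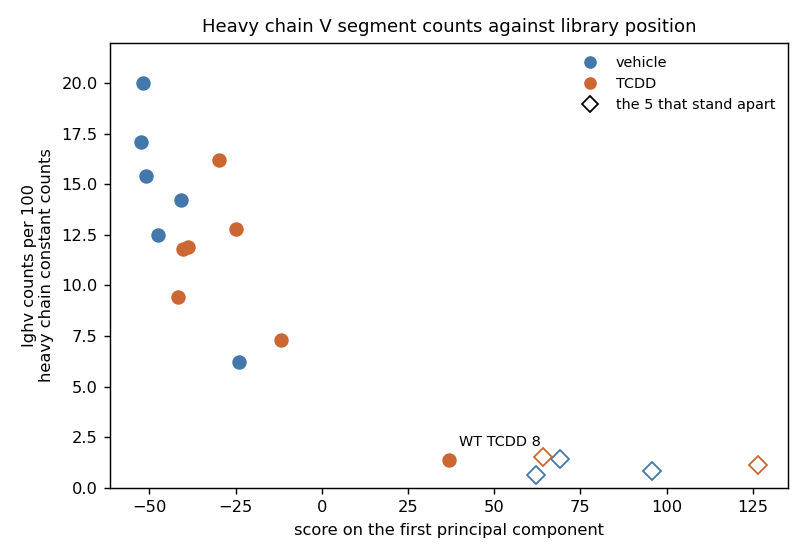
Heavy chain V segment counts per 100 heavy chain constant counts in each library, against the library's score on the first principal component of all tested genes. Diamonds are the 5 libraries that stand apart, at 0.656 to 1.5 per 100; WT TCDD 8 lies with them at 1.37, and the other 12 libraries lie at 6.22 to 20.0.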

How the data were processed

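Poly-T selected mRNA from 10 mg of liver per mouse, with an RNA integrity number above 6.8, was sequenced per the labels' protocols. The deposited files hold raw read counts per gene, 1 library each. Per the submitters' processing notes, FastQC 0.11.9, HISAT2 2.1.0, HTSeq 0.11.3, DESeq2 1.22.2 and build GRCm38 were used, and the counting settings are not given in the sources used here. Gene names, spans and exons came from GENCODE M21, whose identifiers are those of the files.

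Counts were fitted with edgeR 4.0.16 (R 4.3.3), tested first on simulated counts. All 18 libraries entered 1 fit with a mean per group, after filterByExpr, which kept 14835 genes, and TMM scaling. Contrasts used the quasi-likelihood test, p-values were adjusted by Benjamini-Hochberg across the genes kept, and 0.05 was the threshold for a call. A standard error is the log2 difference divided by the square root of F. Each mouse is 1 replicate, and 3 mice per group limit the precision. The common dispersion was 0.200. Levels per length divide CPM by the union of exons.

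The 8 genes and all lists were chosen with earlier results of these data known, so their counts are descriptions and no p is given over a list. Named from the wider lists were called genes averaging 1 CPM or more, up to 6 per list by size of difference, and Igkc, Igha, Tnfsf13b and Cxcl13 whatever their values. One gene that these rules name is not reported here, though the list counts include it. Likeness of profile was Pearson's r of log2 CPM (prior count 2) with the mean of the standardised tested genes. It was ranked over genes averaging 1 CPM or more, without the 8 genes, predicted-gene names and immunoglobulin V, D and J segments. The alternatives were RLE scaling, 2 other filters on low counts, a fit of only the groups compared and DESeq2 1.42.0. Others left out each library of the compared groups in turn, or the 5 libraries that stand apart. A last one added a block for 3 sets of 6 consecutive mouse numbers. Shares over all genes are given for the main edgeR fit only.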

Additional observations from a re-analysis of the deposited data

Results flagged for a closer look

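Among the markers of other cells, the response of Ly6d to TCDD differed between genotypes by a test of that difference: dHep minus WT was -5.25 on the log2 scale (SE 1.14, edgeR adjusted p = 0.0393). Ly6d, a small surface protein of early B lineage and plasmacytoid dendritic cells that epithelial cells also make, was 2.18, 0.504 and 0.746 CPM in WT vehicle and 72.1, 46.5 and 74.5 CPM in WT TCDD. In dHep it was 1.72, 14.9 and 1.36 CPM with vehicle and 10.8, 5.40 and 10.3 CPM with TCDD. The 14.9 CPM is from dHep vehicle 9, a library that stands apart, and no Ly6d difference without it is given here. Ly6d in the remaining dHep vehicle mice was below that of every treated dHep mouse. In dHSC it was 1.13, 1.69 and 2.46 CPM with vehicle and 3.47, 10.9 and 15.6 CPM with TCDD, every treated mouse below every treated WT mouse. The dHSC minus WT response difference ran the same way, at -3.30 (SE 1.13), and was not called (edgeR adjusted p = 1, unadjusted p = 0.00994), so the smaller Ly6d response is not shown to be particular to dHep. Of the 6 listed markers of plasmacytoid dendritic cells 3 were tested, and none but Ly6d passed in WT.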

How the results depend on the processing

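Among the 8 genes, 3 were called after TCDD in WT, 0 in dHep and 3 in dHSC, and among the wider lists 14, 0 and 6. Leaving out 1 library of the compared groups at a time, the 8 genes gave 1 to 3 calls in WT and 0 to 4 in dHSC. The wider lists gave 1 to 13 in WT and 0 to 8 in dHSC, and every other comparison gave 0 for both. Single libraries of the other groups were not left out. The 1 call among the 8 genes in WT came without WT vehicle 13. A fit of only the groups compared called 0 of the 8 and 0 wider genes in dHSC, and 1 wider gene each for the dHep response difference and for treated dHep minus WT. DESeq2 called 5 of the 8 and 23 wider genes in WT, 5 and 16 in dHSC, 1 wider gene in dHep, 2 of the 8 and 2 wider genes for the dHep response difference, and 1 wider gene for treated dHep minus WT. Without the 5 libraries that stand apart, 5 of the 8 and 27 wider genes (2 of them lower) were called in WT, 0 and 2 in dHSC, and 2 wider genes for treated dHep minus WT. RLE scaling and a filter of 1 CPM in 3 libraries took Pax5 in WT over the threshold (edgeR adjusted p = 0.055 and 0.0503). No share of all genes called is given for these other fits, so their counts describe the fits and not the genes. The cause of these shifts was not tested. Uncalled log2 differences turned sign as follows. Without the 5 libraries they were 0.23 for Cd22 after TCDD in dHep, -0.03 for Jchain in vehicle dHep minus WT and -0.33 for Pax5 in vehicle dHSC minus WT. In the dHSC response difference they were then -0.71 for Ighm, -1.5 for Jchain and -0.93 for Pax5. In treated dHSC minus WT they were -0.69 for Ighm, -1.23 for Jchain, -1.26 for Pax5 and -0.88 for Cd22. With sets of mouse numbers as a block, Pax5 was -0.11 in vehicle and -0.04 in treated dHSC minus WT, and Cd22 -0.06 in the latter. With 1 library left out, ranges that crossed 0 were -1.38 to 0.26 for Pax5 and -0.68 to 0.60 for Cd22 after TCDD in dHep, and -0.16 to 1.04 for Jchain in vehicle dHep minus WT. In vehicle dHSC minus WT they were -0.77 to 0.24 for Cd79a, -0.10 to 1.09 for Ighm, -0.03 to 1.17 for Jchain and -0.34 to 0.41 for Pax5. In the dHSC response difference they were -1.65 to 0.27 for Cd79a, -0.96 to 0.05 for Cd79b, -0.89 to 0.85 for Ighm, -1.52 to 1.38 for Jchain and -1.29 to 0.84 for Pax5. In treated dHSC minus WT they were -0.68 to 1.06 for Ighm, -1.23 to 1.67 for Jchain, -1.26 to 0.88 for Pax5 and -0.88 to 0.59 for Cd22. With 37 counts of Pax5 over 3 WT vehicle libraries, depth limits the vehicle end of its difference. The groups share no mouse number, but each set of 6 consecutive numbers holds 1 mouse of every group. These sets come from the numbers alone, and with them as a block Cd22 in WT passed (edgeR adjusted p = 0.0383) and Pax5 in dHSC did not (0.0629).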

Other observations

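The V segments also differed in how evenly the counts spread. WT TCDD 2 had counts on 144 segments, with Igkv1-117 highest at 5.0% of 1054 V counts (exact 95% interval 3.8% to 6.5%). WT TCDD 14 had counts on 126 segments, with Igkv6-32 highest at 4.7% of 600 counts (3.1% to 6.7%). WT TCDD 8 had counts on 55 segments, with Igkv2-109 highest at 9.0% of 134 counts (4.7% to 15.1%). In WT vehicle 1 the highest segment was Igkv8-30, a kappa light chain segment, at 15.6% of 231 counts over 66 segments (11.2% to 20.9%). In WT vehicle 13 it was Ighv1-56 at 7.4% of 95 counts (3.0% to 14.6%) and in WT vehicle 7 Ighv7-3 at 15.4% of 39 (5.9% to 30.5%), so the WT groups overlapped in this share. dHSC TCDD 18, the library richest in Igha, had counts on 77 segments, and Igkv10-96 took 10.4% of 491 counts (7.8% to 13.4%). The number of segments seen moves with the number of counts, and the intervals cover counting error only.

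Kappa segments had more counts than heavy chain segments in each of the 18 libraries, as in WT TCDD 2 with 621 Igkv and 390 Ighv counts and in dHSC TCDD 18 with 411 and 72. In mice most B cells carry a kappa rather than a lambda light chain, which does not bear on kappa against heavy chain counts. What sets kappa above heavy chain counts was not tested. Iglc2, 1 of the lambda constant genes, had a log2 difference of 2.91 (SE 0.98) after TCDD in WT (edgeR adjusted p = 0.106). In dHep it was -0.44 (SE 0.90), and edgeR called Iglc2 in neither.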
